A study of Rattus norvegicus with 6 samples.

Results

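Polycystins and genes of the primary cilium were followed in RNA from pancreatic duct glands of HIP rats and wild-type rats. The set named 9 genes, Pkd1, Pkd2, Pkhd1, Ift88, Ift20, Ift57, Bbs2, Bbs4 and Arl13b, of which 8 stand on a row among the 15679 rows of the tables, and expression of Pkhd1 was not analysed here. They are sensors and transport genes of the duct cell cilium, chosen by the level of Pkd2, which was higher in HIP in these same libraries. Their differences between HIP and WT are therefore given as a description, without a test.

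The study set duct glands of HIP rats, taken before diabetes sets in, beside those of WT rats. The HIP transgene encodes the human form of islet amyloid polypeptide under an insulin promoter, so that beta cells express it, and the rats serve as a model of type 2 diabetes; ages are not given in the labels. Both groups are Sprague-Dawley rats, with 3 libraries named HIP30, HIP2 and HIP3 against 3 named WT26, WT1 and WT4. Glands were recognised by shape, cut out with a laser and sequenced from total RNA with a kit for very small inputs. The labels do not say whether each library is a separate animal, so an SD or p-value below rests on the spread between libraries, which may be technical. Standard errors and p-values come from limma, which draws the variance of each gene toward that of genes of similar level. A standard error is therefore not the spread of that gene alone.

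The primary cilium is a single antenna of the cell surface that stands on a basal body and reaches into the lumen of a duct. Intraflagellar transport trains, moved by kinesin-2 and dynein-2, carry cargo along it, the BBSome carries membrane proteins in and out, and the transition zone at its base acts as a gate. Polycystin-1 and polycystin-2 form a receptor and channel complex in its membrane, and loss of either gives cysts in kidney, liver and pancreatic ducts. The cilium is taken down when a cell enters division.

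RefSeq entries of 7 of the 9 genes, all but Arl13b and Ift57 and with Pkhd1 among them, gave the 250 bases before the annotated start, in build GRCr8, while the deposited values rest on rn5. The upstream stretches of both polycystin partners are shown because the set was built on Pkd2 and Pkd1 is its partner, with each GC box, GGGCGG on either strand, in capitals. Pkd2 lies on the minus strand at chr14:5585141-5585390, and Pkd1 on the plus strand at chr10:14078429-14078678.
Pkd2: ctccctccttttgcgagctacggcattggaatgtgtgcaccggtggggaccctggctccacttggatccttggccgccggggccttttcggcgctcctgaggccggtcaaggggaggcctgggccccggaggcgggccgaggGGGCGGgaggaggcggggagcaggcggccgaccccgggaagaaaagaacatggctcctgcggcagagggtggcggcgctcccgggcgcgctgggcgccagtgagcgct
Pkd1: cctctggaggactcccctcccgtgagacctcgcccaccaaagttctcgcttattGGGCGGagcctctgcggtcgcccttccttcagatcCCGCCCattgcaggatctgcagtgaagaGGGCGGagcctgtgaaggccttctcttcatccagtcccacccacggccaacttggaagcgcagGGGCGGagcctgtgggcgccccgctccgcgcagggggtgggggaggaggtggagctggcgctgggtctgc

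The Pkd2 stretch held 1 GC box and the Pkd1 stretch 4, and they were 72.4% and 67.2% G or C, where the median over all 33469 upstream stretches was 51.2%. A GC box was found in 30.5% of all stretches. The X-box bound by RFX factors, which drive cilium genes, was searched on both strands as GTTNCC followed after 3 bases by GNAAC, N being any base, and was in none of the 7 stretches, against 0.595% of all. An arm of it, GTTGCC, was in 9.89% of all stretches and, among these genes, in that of Ift88 at chr15:35688737-35688986 on the plus strand, shown for that match in capitals.
Ift88: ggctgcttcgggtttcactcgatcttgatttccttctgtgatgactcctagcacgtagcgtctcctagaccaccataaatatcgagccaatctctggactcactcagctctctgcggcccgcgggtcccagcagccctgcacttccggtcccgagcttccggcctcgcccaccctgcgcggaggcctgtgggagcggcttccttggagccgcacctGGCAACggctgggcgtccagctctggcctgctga

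An arm can lie within a full X-box, so these searches overlap. Of the 130 upstream stretches of the other cilium genes listed here, 24.6% held the arm and 48.5% a GC box. The full X-box was in 1.54% of them, those of the transition zone genes Ahi1 and Mks1. It is too rare for its absence from the stretches of the members to say much. These matches describe letters and not binding.

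The libraries held 15141136 to 17574682 reads on the listed genes, and levels are given as CPM, a gene's share of the reads in its library, scaled between libraries by TMM factors. Values by library run in the order HIP30, HIP2, HIP3 for HIP and WT26, WT1, WT4 for WT. The 8 genes were well covered, with 598 to 3722 reads per library. Duct epithelium was present throughout, with the keratin Krt19 at 1514 to 2307 CPM in HIP and 1815 to 7326 CPM in WT, and the chloride channel Cftr at 272 to 337 CPM in HIP and 177 to 277 CPM in WT, while Krt7, Sox9, Muc6 and Muc5b were not analysed here. The 6 duct markers measured summed to 4112 to 5000 CPM in HIP and 4200 to 10758 CPM in WT. HIP30 and HIP2 stood apart from the other 4 libraries. Their 6 markers of dividing cells summed to 40.9 and 243 CPM, against 1747 CPM in HIP3 and 1097 to 1734 CPM in WT. Most of the sum in HIP3 and WT was the proliferation antigen Mki67 and the topoisomerase Top2a, both without a read in HIP30. All 6 markers were lower in HIP30 and HIP2 than elsewhere, but by different amounts. The marker Plk1 was at 33.98 and 37.19 CPM there, 64.09 CPM in HIP3 and 52.04 to 80.58 CPM in WT. Genes without reads numbered 2440, 2155 and 1837 in HIP and 2822, 2488 and 672 in WT. Whether such losses shaped the marker sums was not tested. Beta cell markers summed to 5081 CPM in HIP3 and 11325 CPM in WT4 and to at most 185 CPM elsewhere.

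Pkd2, the gene for the channel polycystin-2, was the member with the largest difference. The HIP libraries held 196, 188 and 121 CPM of it, from 3227, 3076 and 1974 reads, and the WT libraries 100.05, 110.4 and 111 CPM, from 1678, 1797 and 1824 reads. All HIP libraries lay above all WT libraries, but HIP3 lay close to WT4 while HIP30 and HIP2 lay far above. The mean was 168 ± 41.2 CPM in HIP and 107 ± 6.12 CPM in WT (SD, n = 3 each), a ratio of 1.57 and a difference of 0.62 on the log2 scale of CPM plus a pseudocount, with a standard error of 0.22. It was 0.50 without HIP30, 0.53 without HIP2 and 0.83 without HIP3. In a bulk library, more cells of a type and more RNA per cell cannot be told apart.

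Pkd1, the gene for the receptor partner polycystin-1, did not show this pattern. Its levels were 189, 227 and 193 CPM for HIP and 212, 195 and 179 CPM for WT. The groups overlapped widely, and the lowest and highest library differed far less than for Pkd2. The mean was 203 ± 21.0 CPM in HIP and 195 ± 16.1 CPM in WT, with 0.054 ± 0.17 between them (log2 difference ± standard error). Within each library, where scaling cancels, Pkd2 reads per Pkd1 read were 1.04, 0.826 and 0.628 in HIP and 0.473, 0.566 and 0.618 in WT. This quotient compares libraries and is not a ratio of molecules, since reads were not divided by transcript length. HIP3 again stood next to WT4. On the RefSeq annotation Pkd1 shares 4 bases with its neighbour Tsc2, which was at 152 to 162 CPM in HIP and 136 to 170 CPM in WT, and no gene overlaps Pkd2.

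**Figure D1:**
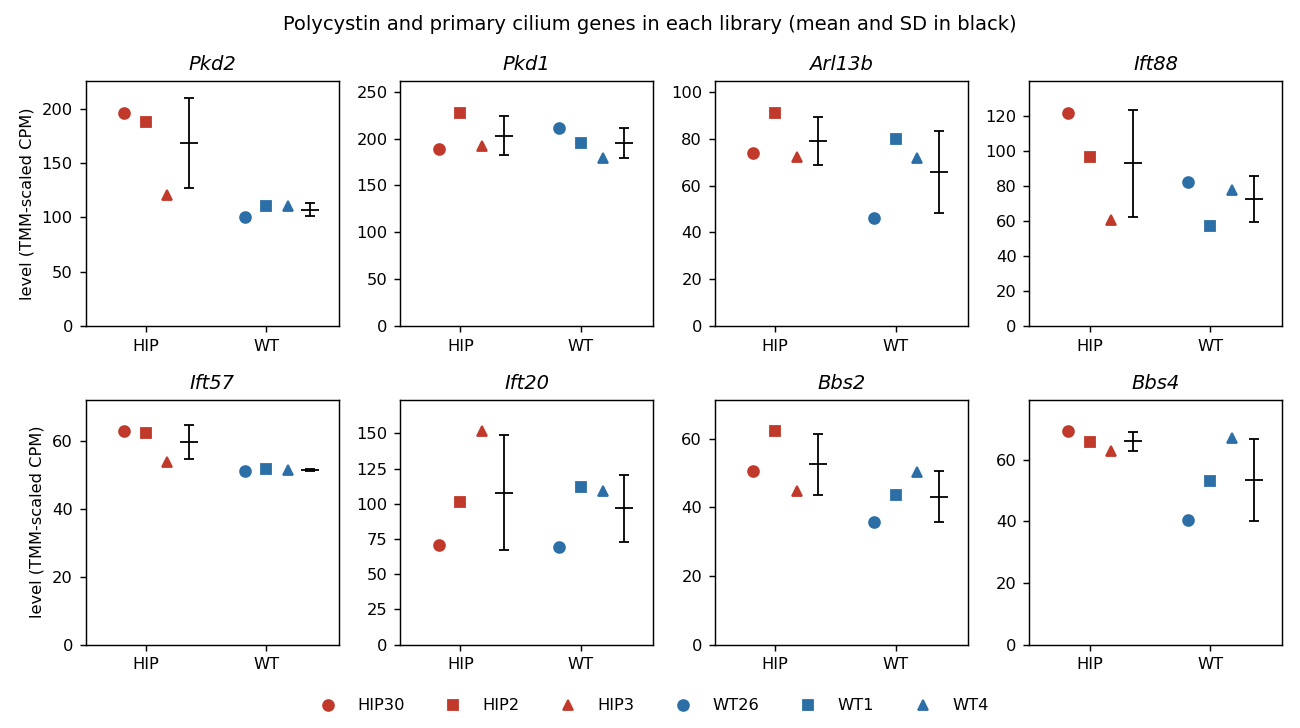
Levels of the 8 genes in TMM-scaled CPM (vertical axes from 0), HIP libraries in red and WT libraries in blue, with the mean and SD of each group in black. Pkd2 is separated between groups, with HIP3 at 121 CPM next to the WT libraries, while Pkd1 and Ift20 overlap.

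Arl13b encodes a small GTPase of the ciliary membrane that serves as a cilium marker. Levels were 74.0, 91.0 and 72.2 CPM for HIP and 46.3, 79.9 and 71.8 CPM for WT. The groups overlapped, and WT26 was the lowest of the 6 libraries. The means were 79.1 ± 10.4 CPM in HIP and 66.0 ± 17.6 CPM in WT, with a log2 difference of 0.29 ± 0.24. It was 0.054 without WT26, 0.19 without HIP2 and 0.44 without WT1. On the RefSeq annotation Stx19 lies within Arl13b, and with strandedness not given in the sources used here, reads of the 2 genes may not be separable. Stx19 itself was at 13.2 to 28.4 CPM in HIP and 5.96 to 19.0 CPM in WT.

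The intraflagellar transport genes Ift88, Ift57 and Ift20 encode subunits of the IFT-B complex, which carries cargo toward the tip, and the Ift20 protein also sits at the Golgi. Ift88 had 122, 96.5 and 60.7 CPM for HIP and 82.1, 57.3 and 77.3 CPM for WT. HIP30 and HIP2 were the highest libraries, but HIP3 lay below WT26 and WT4. The means were 92.9 ± 30.6 CPM in HIP and 72.2 ± 13.2 CPM in WT, a log2 difference of 0.32 ± 0.28, which was 0.11 without HIP30, 0.16 without WT1 and 0.59 without HIP3.

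Ift57 had the narrowest range over the 6 libraries, at 62.7, 62.4 and 53.8 CPM for HIP and 51.0, 51.7 and 51.5 CPM for WT. The groups did not overlap on this scale, with HIP3 just above WT, and they did overlap when library totals replaced TMM factors, at a lowest HIP level of 52.5 CPM and a highest WT level of 53.5 CPM. The log2 difference was 0.21 ± 0.17, from means of 59.6 ± 5.07 CPM in HIP and 51.4 ± 0.347 CPM in WT. Ift20 followed another order, with 70.4, 101 and 151 CPM for HIP and 69.3, 112 and 109 CPM for WT. It was the 1 gene of the 8 that was highest in HIP3, and low in HIP30 and WT26 alike. Its means were 108 ± 40.9 CPM in HIP and 96.8 ± 23.8 CPM in WT, and the log2 difference of 0.12 ± 0.31 turned sign without HIP3, at -0.17, and without WT26, at -0.11. Ift20 reads per Ift57 read were 1.12, 1.62 and 2.81 in HIP and 1.36, 2.16 and 2.12 in WT, so that HIP libraries held both the lowest and the highest quotient.

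Bbs2 and Bbs4 encode subunits of the BBSome, the coat that moves receptors through the cilium. Bbs2 had 50.8, 62.2 and 44.7 CPM for HIP and 35.7, 43.5 and 50.3 CPM for WT. Bbs4 had 69.2, 65.8 and 62.9 CPM for HIP and 40.5, 53.1 and 67.1 CPM for WT. In both genes the groups overlapped through WT4, and WT26 was the lowest of all 6 libraries. Bbs2 averaged 52.5 ± 8.88 CPM in HIP and 43.2 ± 7.35 CPM in WT, and Bbs4 66.0 ± 3.13 CPM in HIP and 53.5 ± 13.3 CPM in WT. The log2 differences were 0.28 for Bbs2 and 0.33 for Bbs4, each with a standard error of 0.22. Without WT26 they were 0.15 and 0.14, and Bbs2 was at 0.16 without HIP2. Bbs4 was at 0.51 without WT4. A long noncoding RNA shares 255 bases with Bbs2, and a ribosomal pseudogene lies in Bbs4.

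**Figure D2:**
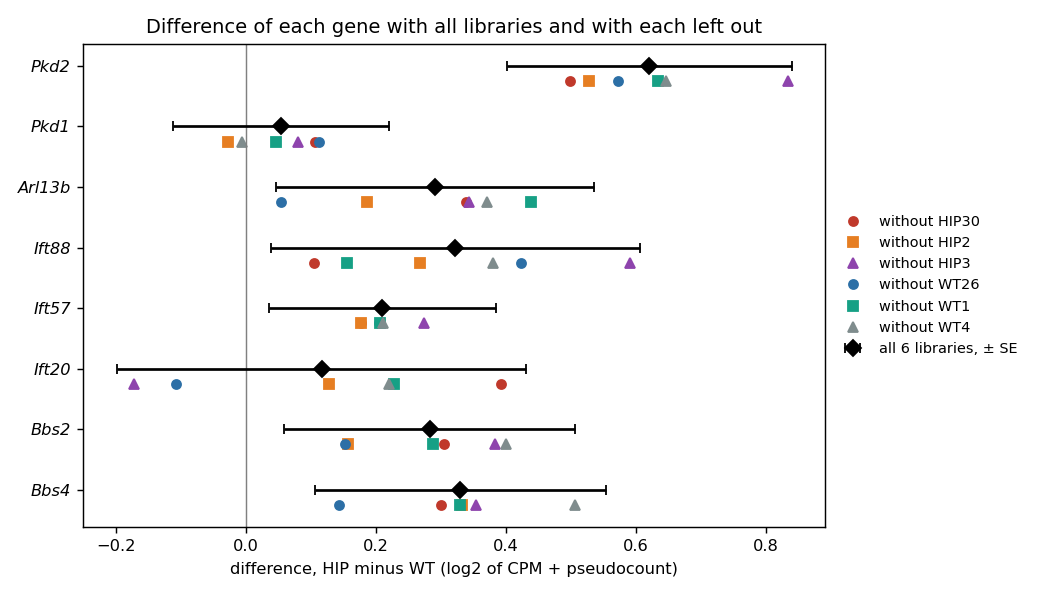
Difference of HIP minus WT for each of the 8 genes on the log2 scale, with all 6 libraries (black diamond, bar of 1 standard error) and with each library left out (coloured marks). Pkd2 runs from 0.50 without HIP30 to 0.83 without HIP3, and its sign could hardly turn because its groups do not overlap. Pkd1 and Ift20 cross 0.

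Libraries held different ranks across the genes. HIP30 was the highest library for 4 of the 8 genes, HIP2 for 3 and HIP3 for 1, and WT26 was the lowest for 6. HIP3 was the lowest of the HIP libraries for 6 genes. Against the WT mean, HIP3 lay at 0.18 on the log2 scale for Pkd2, -0.23 for Ift88 and 0.68 for Ift20, while HIP30 lay at 0.87, 0.77 and -0.43 for the same genes. Between the libraries numbered 30 and 26 in their titles the log2 difference of Pkd2 was 0.97, and between those numbered 1 to 4 it was 0.45. The numbers come from titles that do not say what they stand for. The same pair of values was 0.77 and 0.11 for Bbs4, 0.68 and 0.10 for Arl13b, 0.57 and 0.20 for Ift88, 0.51 and 0.17 for Bbs2, and 0.30 and 0.17 for Ift57. For Ift20 it was 0.02 and 0.16, and for Pkd1 -0.16 and 0.16, so that these 2 genes alone had the smaller value, or a negative one, between libraries 30 and 26.

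All 8 differences were positive, where 51.1% of the 12105 tested genes were, and the groups did not overlap with HIP higher in 2 of the 8, where this held for 5.3% of tested genes. These shares are a description, as Pkd2 was picked for this contrast. No gene passed limma's test at a Benjamini-Hochberg adjusted p of 0.05 in either direction, which is 0% of the 12105 tested, and none passed with limma-voom. Before adjustment 398 genes, 3.29% of those tested, were higher in HIP with p below 0.05 by limma, and 396, 3.27%, were lower. Both directions together held 794 genes by limma and 917 by limma-voom.

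By pattern over the 6 libraries, the genes nearest to Pkd2 among 9996 tested genes of at least 5 CPM were Hps3, Ets2, Il12rb2 and Fam84a. Nearness was the root mean square distance between log2 values, each gene centred on its own mean, and was 0.038 for Hps3, 0.070 for Ets2 and 0.079 for each of the others. Hps3, a subunit of a complex for lysosome-related organelles, had 67.4, 65.5 and 41.2 CPM for HIP and 34.8, 40.4 and 37.4 CPM for WT. Ets2, a transcription factor, had 848, 741 and 492 CPM for HIP and 444, 473 and 505 CPM for WT. Both were high in HIP30 and HIP2, with HIP3 close to WT, which follows from their choice by nearness to Pkd2 and adds no support. Il12rb2, a cytokine receptor chain, was at 10.3 to 14.4 CPM in HIP and 7.81 to 8.82 CPM in WT, and Fam84a at 124 to 195 CPM in HIP and 88.5 to 109 CPM in WT. The nearest of the other members was Bbs2 at a distance of 0.25 and rank 489, and the farthest was Ift20 at 0.61 and rank 7222.

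The wider cilium pathway was read from 14 lists with 145 tested genes, of which 91 lay above 0, a share of 62.8% beside the 51.1% of all tested genes. The median was 0.14 on the log2 scale, beside 0.0100 over all tested genes. None passed the adjusted threshold, and the smallest adjusted p over all genes was 0.690 by limma. Of the 145 genes, 15 had an unadjusted p under 0.05, a share of 10.3% beside 6.56% of all tested genes, with 9 higher and 6 lower in HIP. Scaled by library totals instead, 102 of the 145 lay above 0, beside 59.6% of all tested genes. Most genes named from the lists below were picked by lowest unadjusted p, which favours groups without overlap. Over all tested genes, groups did not overlap in 5.3% with HIP higher and in 4.29% with HIP lower.

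Transition zone genes, which build the gate at the cilium base, lay above 0 in 16 of 19 cases, with a median of 0.37. Nphp4, Mks1 and Tmem231, gate components mutated in human nephronophthisis or Meckel and Joubert syndromes, had the lowest unadjusted p. Nphp4 had 23.4, 26.4 and 17.1 CPM for HIP and 8.53, 12.1 and 16.1 CPM for WT, and the groups did not overlap. Mks1 averaged 33.4 ± 2.90 CPM in HIP and 24.0 ± 3.80 CPM in WT, and Tmem231 30.8 ± 7.51 CPM in HIP and 20.5 ± 3.75 CPM in WT. HIP30 lay above all WT libraries for 15 of the 19 genes and HIP2 for 12, but HIP3 for 3. Against the WT mean, the list median was 0.65, 0.34 and 0.11 in HIP and -0.31, 0.03 and 0.22 in WT, so WT4 lay above HIP3. With a library left out the median of the list ran from 0.20, without WT26, to 0.50, without WT4.

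Transport complexes held smaller differences. The other IFT-B genes lay above 0 in 9 of 12 cases with a median of 0.25. Those of lowest unadjusted p, Ift81, Cluap1 and Ift172, had log2 differences of 0.35, 0.29 and 0.28, which with a library left out were as low as 0.22 without WT26, 0.16 without HIP30 and 0.13 without WT1. The list median was 0.10 without WT26, 0.16 without HIP30 and 0.17 without WT1. All 3 IFT-A genes, of the complex for return transport, lay above 0, with Ttc21b at 139 ± 18.9 CPM in HIP and 107 ± 20.7 CPM in WT, while Wdr19 and Ift43 differed by 0.21 and 0.18 and turned sign with a library left out. The other BBSome genes lay above 0 in 6 of 8 cases, with a median of 0.17 that ran from 0.051, without WT26, to 0.26, without WT4. Those of lowest unadjusted p, Bbs1, Ttc8 and Bbs10, had log2 differences of 0.51, 0.59 and 0.34 and standard errors of 0.28, 0.32 and 0.32. Bbs1 was at 0.33 without HIP30, Ttc8 at 0.31 without WT26, and Bbs10 at 0.024 without WT26 and 0.57 without WT4.

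Motor genes lay above 0 in 7 of 8 cases with a median of 0.19, which was 0.061 without WT26 and 0.10 without HIP2. The exception was Kif3c, a kinesin-2 subunit, at 3.95, 10.4 and 15.7 CPM for HIP and 31.6, 20.9 and 19.8 CPM for WT. Its groups did not overlap, and the log2 difference of -1.43 had a standard error of 0.51, and went to -0.87 without HIP30. The dynein-2 genes Wdr60 and Dync2li1 differed by 0.47 and 0.66, with standard errors of 0.23 and 0.37. Wdr60 was at 0.29 without WT26, and Dync2li1 at 0.37 without HIP30 and 0.38 without WT1. Kif3a and Kifap3, core subunits of kinesin-2 named after their values were seen, differed by 0.044 and 0.039.

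At the basal body 3 of 11 genes lay above 0, with a median of -0.12 that was 0.040 without HIP30. Ttbk2, a kinase that starts cilium growth, averaged 63.0 ± 3.20 CPM in HIP and 50.8 ± 9.54 CPM in WT, while Cep89 and Alms1 differed by -0.29 and -0.21 on the log2 scale, each with a standard error of 0.22. Cep89 was at -0.17 without WT4, and Alms1 at -0.0088 without HIP30 and -0.40 without HIP3. Of 13 ciliary GTPases and adaptors 8 lay above 0, with a median of 0.23 that was 0.010 without HIP30 and 0.38 without HIP3. Arl3, the GTPase that releases lipidated cargo in the cilium, had 38.5, 28.1 and 23.8 CPM for HIP and 18.3, 16.03 and 21.8 CPM for WT, without overlap. Rab23 and Rab3ip differed by 0.46 and 0.36, with standard errors of 0.23 and 0.21. Rab23 was at 0.26 without WT26, and Rab3ip ran from 0.24, without HIP2, to 0.53, without HIP3. In the polycystin family itself, Pkd2l2 averaged 8.94 ± 5.07 CPM in HIP and 8.91 ± 0.200 CPM in WT, and Pkd2l1 had 1 read in WT4 and none elsewhere.

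**Figure D3:**
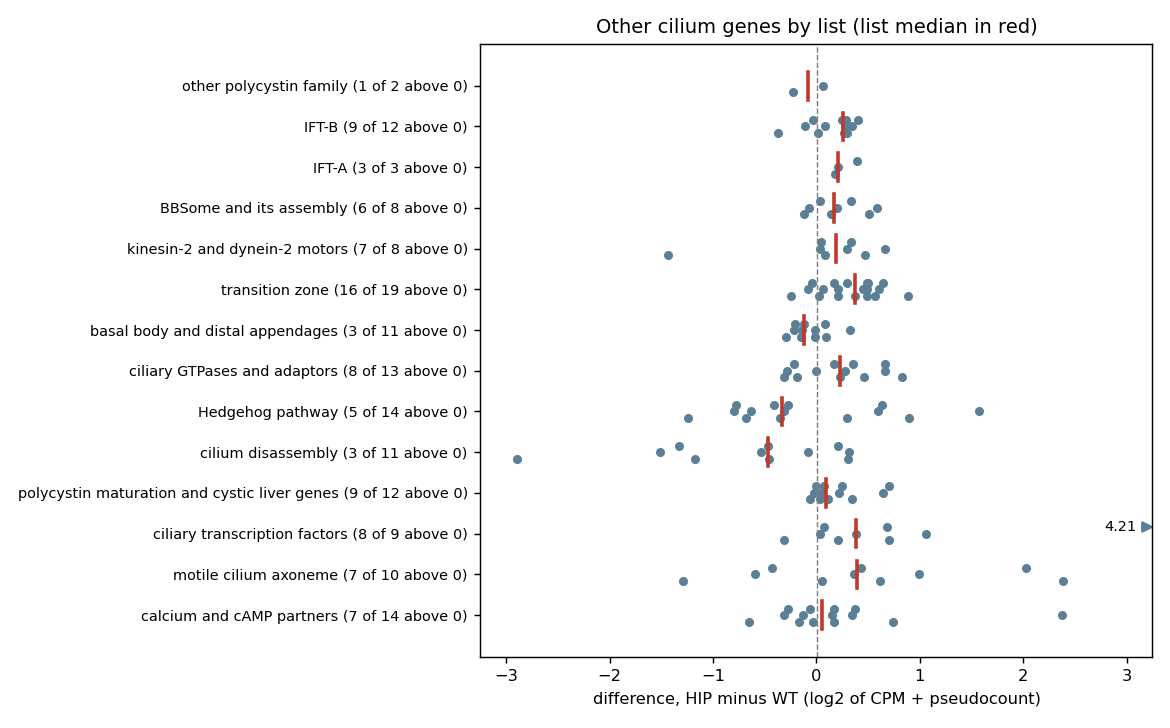
Differences of HIP minus WT on the log2 scale for the tested genes of each list (points) with the list median in red and the median of all tested genes as a dashed line. Transition zone genes lie above 0 in 16 of 19 cases and cilium disassembly genes in 3 of 11, and the arrow marks Rfx6 at 4.21.

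Hedgehog signalling, which in vertebrates runs through the primary cilium, lay in both directions. Of 14 tested genes 5 lay above 0, with a median of -0.34 that was -0.20 without HIP30 and -0.22 without WT4. Gli1, the transcription factor that reads out the pathway, had 2.98, 4.70 and 10.5 CPM for HIP and 12.2, 11.7 and 14.5 CPM for WT. Ihh, a ligand, had 25.2, 26.8 and 25.7 CPM for HIP and 58.1, 37.3 and 33.5 CPM for WT. Neither gene's groups overlapped, with HIP lower, which held for 4.29% of all tested genes. Both genes were named by lowest unadjusted p, a choice that favours separated groups, so the missing overlap adds no support. In the list, 3 of the 14 tested genes were lower in HIP without overlap and 3 were higher. Evc2, a cilium base protein of the pathway, had 17.6, 15.7 and 10.8 CPM for HIP and 2.09, 5.28 and 9.61 CPM for WT, so that HIP was higher without overlap. Its log2 difference of 1.57 ± 0.56 was 1.003 without WT26.

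Cilium disassembly genes lay below 0 in 8 of 11 cases, with a median of -0.47 that ran from -0.77, without HIP3, to -0.35, without HIP30. Aurka, the mitotic kinase that also triggers loss of the cilium, had 3.16, 7.51 and 15.9 CPM for HIP and 23.8, 24.3 and 15.7 CPM for WT. HIP3 lay within the WT range, and HIP30 and HIP2 below it. Nedd9, its scaffold, differed by -1.18 with a standard error of 0.46 and by -0.66 without HIP30, and Nek2, a centrosomal kinase, had no read in HIP30 and 1.65 and 11.4 CPM in HIP2 and HIP3, with WT between 8.33 and 12.8 CPM. Several of these genes serve mitosis, and Aurka and Plk1 are also among the dividing cell markers, so the lists share genes. The sum of the dividing cell markers, given above, was low in the same HIP30 and HIP2 in which Pkd2 was high. Whether that has a part in the Pkd2 difference was not tested.

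Transcription factors tied to cilia and cysts held the largest single difference among the lists, that of Rfx6. Of 9 tested genes 8 lay above 0, with a median of 0.39. Onecut1, a duct transcription factor, had 201, 196 and 117 CPM for HIP and 48.9, 69.0 and 149.5 CPM for WT, with HIP3 below WT4. Rfx6, an RFX factor of endocrine cells, had 88.2, 71.3 and 16.4 CPM for HIP and, after no read in WT26, 6.45 and 20.3 CPM in WT1 and WT4, so its fitted difference of 4.21 depends on the pseudocount and on WT26, without which it was 2.02. Rfx3, an RFX factor of cilium genes named after its values were seen, differed by 0.68 with a standard error of 0.40 and overlapped between groups.

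Genes that help polycystins mature or that give cystic liver disease lay above 0 in 9 of 12 cases with a median of 0.092 that ran from 0.059, without WT4, to 0.16, without WT26. Dzip1l, a transition zone protein of recessive polycystic kidney disease, averaged 51.2 ± 17.4 CPM in HIP and 31.6 ± 3.68 CPM in WT, and Alg9, a glycosyltransferase, 64.2 ± 10.2 CPM in HIP and 50.1 ± 1.30 CPM in WT. Both were higher in HIP without overlap between groups, as were 5.3% of all tested genes, and both were named by lowest unadjusted p. Dzip1l in HIP3, at 36.3 CPM, lay just above WT4, at 35.2 CPM. The glucosidase genes Ganab and Prkcsh, named after their values were seen, differed by 0.041 and -0.0061. Among 14 calcium and cAMP partners 7 lay above 0 with a median of 0.055, which was -0.064 without WT4. Trpv4, a channel that can join polycystin-2, averaged 9.60 ± 2.53 CPM in HIP and 5.58 ± 0.397 CPM in WT, while Adcy3 and Pde4d differed by -0.65 and 0.34, with standard errors of 0.37 and 0.20. Adcy3 was at -0.42 without HIP30 and -0.99 without HIP3, and Pde4d at 0.21 without WT26.

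Motile cilia belong to multiciliated cells and were listed as a contrast. Of 15 measured axoneme genes 10 were tested, and 7 of these lay above 0 with a median of 0.40 that was 0.096 without WT1, 0.11 without HIP30 and 0.66 without WT4. Foxj1, the master factor of motile cilia, was at most 0.855 CPM in HIP and 0.0596 CPM in WT, and the dynein gene Dnai1 had no read outside HIP3, so defining markers of multiciliated cells were at or near 0. The 4 such markers measured, of 5 listed, summed to 94.8 to 145 CPM in HIP and 107 to 222 CPM in WT, nearly all of it Ccdc39 and Tppp3. Tekt1, a tektin of the axoneme, had 11.2, 12.6 and 4.04 CPM for HIP and 0.358, 2.15 and 3.77 CPM for WT, without overlap. Rsph9 differed by 0.99 and Tppp3 by -1.29, with standard errors of 0.51 and 0.53. Without HIP30 they were 0.59 and -0.80.

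Some markers of other cells set HIP30 and HIP2 apart and others did not. All 4 myeloid markers had a positive difference, and their sum was 2013, 2029 and 205 CPM for HIP and 22.1, 218 and 278 CPM for WT. Most of it was Mpeg1, at 1929, 1945 and 144 CPM for HIP and 0, 181 and 185 CPM for WT. The other markers did not share this pattern. Cd68 was at 12.9 to 16.05 CPM in HIP and 5.37 to 17.6 CPM in WT. Csf1r was at 37.9 to 63.3 CPM in HIP and 14.7 to 70.2 CPM in WT, with WT4 the highest library. Itgam was at 6.35 to 10.5 CPM in HIP and 2.03 to 5.05 CPM in WT, with HIP3 the highest. All 7 fibroblast and stellate markers had a negative difference, and their sum was 315, 530 and 1177 CPM for HIP and 944, 1335 and 1479 CPM for WT. The sums of smooth muscle markers were 12.3, 19.4 and 46.9 CPM for HIP and 47.0, 36.9 and 49.7 CPM for WT, so HIP30 and HIP2 were the lowest. Endothelial sums were 79.1 to 107 CPM in HIP and 72.9 to 115 CPM in WT, and those of acinar markers 17.7 to 95.6 CPM in HIP and 21.5 to 61.6 CPM in WT. Other islet markers summed to 26.2 to 310 CPM in HIP and 10.6 to 70.2 CPM in WT, with the glucagon gene Gcg at no read in 4 libraries. The part of these cells in the Pkd2 and transition zone values was not tested.

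**Figure D4:**
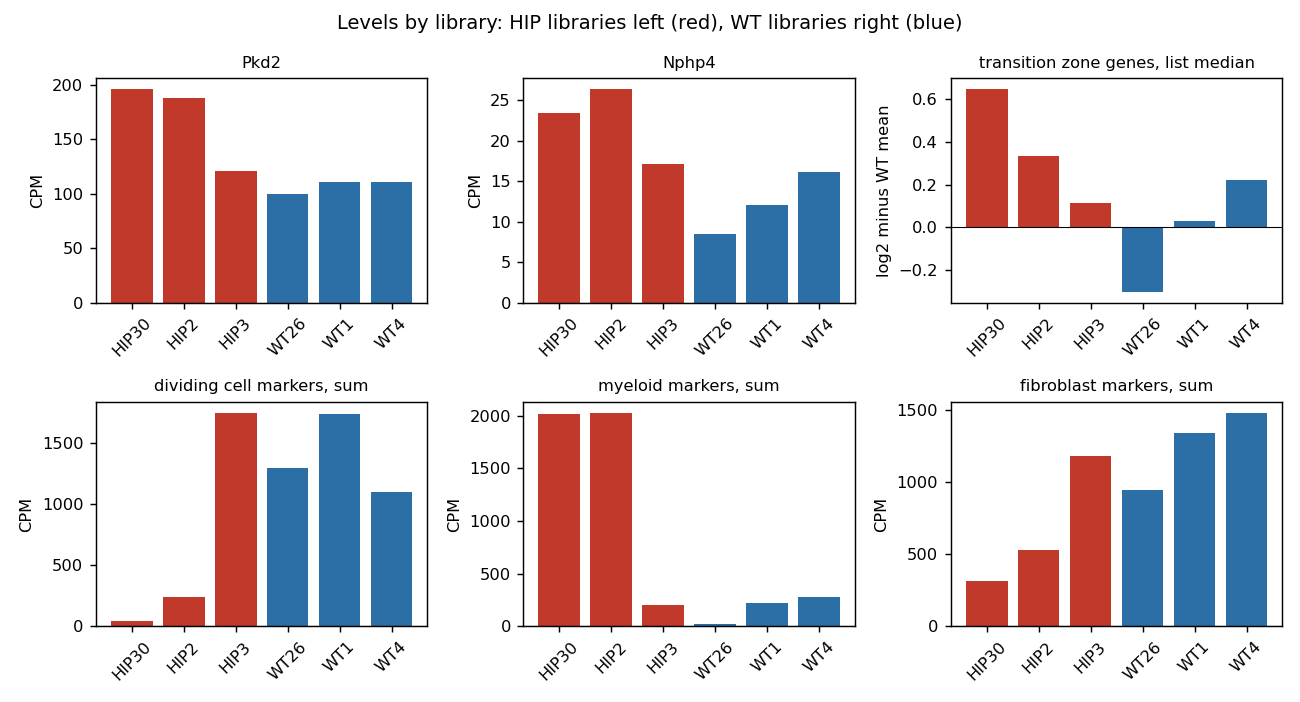
Levels by library, HIP in red on the left and WT in blue on the right, of Pkd2, Nphp4, the transition zone list median (log2 relative to the WT mean), and the summed CPM of dividing cell, myeloid and fibroblast markers. Pkd2 is highest in HIP30 and HIP2, at 196 and 188 CPM, where dividing cell markers sum to 40.9 and 243 CPM and myeloid markers to 2013 and 2029 CPM.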

How the data were processed

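The authors deposited a log2 value per gene symbol and library. STAR, HTSeq, edgeR, limma and build rn5 are named per the submitters' processing notes; versions, strandedness and annotation are not given in the sources used here. From their values, these are log2 CPM with 0.25 reads, scaled to library size, added before the log. Taking off that addition gave whole reads for 100% of entries within 0.1 reads. The 4 rows of 2 repeated symbols were left out.

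Libraries were scaled with TMM factors (0.933 to 1.09; 30% trimmed by log ratio, 5% by level). A gene was tested where 3 libraries reached 0.609 CPM, worth 10 reads in the median one, and all libraries together 15 reads, which left 12105. The test was limma 3.58.1 with an intensity trend in R 4.3.3, on log2 values after adding 0.122 CPM, the worth of 2 reads, a scale that understates changes of low genes, with Benjamini-Hochberg adjustment. The steps were tested on simulated reads. Intervals from reads cover counting error only, since no molecular identifiers are known.

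Promoters are RefSeq's (GRCr8), used for sequence and gene overlaps only. Alternatives were other scalings, filters, pseudocounts, limma-voom, the number series and leaving out each library. The members and lists were chosen with earlier results of these data known. From each list up to 3 genes of at least 5 CPM in a group were named by lowest unadjusted p; others are marked as named after their values were seen. List medians carry no set test. The results of 1 gene of the lists are not reported here. Figures used matplotlib 3.10.9.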

Additional observations from a re-analysis of the deposited data

How the results depend on the processing

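No gene passed the adjusted threshold under any of 17 alternatives, of which 6 left out a library each. The number at an unadjusted p under 0.05, 794 with all libraries, was 2405 by limma-voom with sample quality weights and 149 among the libraries numbered 1 to 4, and ran from 239 without HIP2 to 1853 without HIP3 when libraries were left out, with 1644 without WT4, 279 without HIP30, 349 without WT26 and 350 without WT1. The cause was not tested.

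The difference of Pkd2 was positive in all 17, from 0.45 to 0.83. Pkd2 was chosen for being higher in HIP, and all its HIP libraries lay above all WT libraries. Leaving out libraries could therefore hardly turn its sign, and the sign adds no support. With libraries left out, Pkd1 ran from -0.028 to 0.11 and Ift20 from -0.17 to 0.39, and Ift20 was -0.014 with quality weights. Pkd2l2 turned from -0.22 to 0.14 with quality weights and to 0.42 among the libraries numbered 1 to 4, and ran from -0.56 to 0.41 with libraries left out. Wdr19 was -0.16 among the libraries numbered 1 to 4 and ran from -0.088 to 0.48 with libraries left out, and Ift43 from -0.13 to 0.45. List medians ran from 0.10 to 0.26 for IFT-B and from -0.24 to 0.040 for the basal body. The numbers are read from titles and not stated to be a batch.

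No paired analysis was possible because the titles share no number between the groups.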
